A study of Mus musculus with 6 samples.

Results

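The Schlafen genes are a family clustered on mouse chromosome 11, and 7 of them, Slfn1, Slfn2, Slfn3, Slfn4, Slfn5, Slfn8 and Slfn9, were followed here by name. All 7 were measured, each by 1 probe set that names no other gene, among 19938 genes in all. Gene expression was measured on Affymetrix arrays in CD4 T cells carrying the BDC2.5 receptor, which recognises an antigen of the pancreatic beta cell. The T cells had been transferred into NOD mice, a strain that develops autoimmune diabetes, and were sorted from the spleen as Thy1.1+CD4+ cells 14 h after an injection.

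The groups were 2 arrays after 100 ng of an antibody against DCIR2 carrying the BDC antigen (anti-DCIR2-BDC), 2 after 100 ng of an antibody against DEC205 carrying it (anti-DEC205-BDC) and 2 after PBS. DCIR2 and DEC205 mark separate kinds of dendritic cell, and the question was how T cells respond when one or the other kind presents their antigen. All mice were female, 7 weeks old, and had received BDC2.5 T cells. An antibody free of antigen was not among the groups, so what the antigen did and what the antibody did cannot be told apart. The 2 arrays of each group are labelled as biological replicates, without the number of mice behind each, and p-values measure only the spread between these samples.

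Schlafen proteins came to notice as regulators of thymocyte development and of T cell growth, and several are induced by type I interferon. Mouse members fall into a short class (Slfn1 and Slfn2), an intermediate class (Slfn3 and Slfn4) and a long class with a helicase-like part (Slfn5, Slfn8 and Slfn9). Mouse T cells with a defective Slfn2 lose quiescence and die when activated, and mouse Slfn1 was first described as a brake on T cell growth when overexpressed. Slfn2 also binds tRNAs and shields them from cleavage.

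Slfn1, of the short class, and Slfn5 and Slfn8, of the long class, were lower after both antibodies than after PBS. Slfn5 was 4.12-fold lower after anti-DCIR2-BDC and 2.58-fold lower after anti-DEC205-BDC. Slfn1 was 3.15-fold and 2.46-fold lower, and Slfn8 2.14-fold and 1.97-fold lower, after the same antibodies. Slfn2, Slfn3, Slfn4 and Slfn9 did not pass the test in any comparison. Between the antibodies no member passed.

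A gene passed when its adjusted p in limma, fitted over all 6 arrays and adjusted by Benjamini-Hochberg over all 19938 genes, was under 0.05. After anti-DCIR2-BDC 3 of 7 members were lower than after PBS, against 7.82% of all genes tested. After anti-DEC205-BDC the same 3 of 7 were lower, against 3.53% of all genes. No member passed upwards in limma, where 10.1% of all genes did after anti-DCIR2-BDC and 5.32% after anti-DEC205-BDC. At an unadjusted limma p under 0.05 Slfn2 alone was higher, after anti-DCIR2-BDC. In that comparison 5603 of 19938 genes had such a p in either direction. Both arrays lay below both PBS arrays in 3 of 7 members after anti-DCIR2-BDC, against 31.9% of all genes. After anti-DEC205-BDC they did so in 4 of 7, Slfn9 among them, against 26.5%. Both arrays lay above both PBS arrays for Slfn2 after anti-DCIR2-BDC and for Slfn3 after anti-DEC205-BDC. The share of all genes separated upwards from PBS is not given here. The median log2 change of the 7 members was -0.25 after anti-DCIR2-BDC and -0.51 after anti-DEC205-BDC, and that of all genes was -0.049 and -0.025. With 7 members the median is the value of 1 gene, Slfn9 in both cases; the mean change was -0.64 after anti-DCIR2-BDC and -0.56 after anti-DEC205-BDC. Slfn1, Slfn5 and Slfn8 each had the lower value after anti-DCIR2-BDC, though none of these differences between the antibodies passed. Both comparisons use the same PBS arrays.

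**Figure D1:**
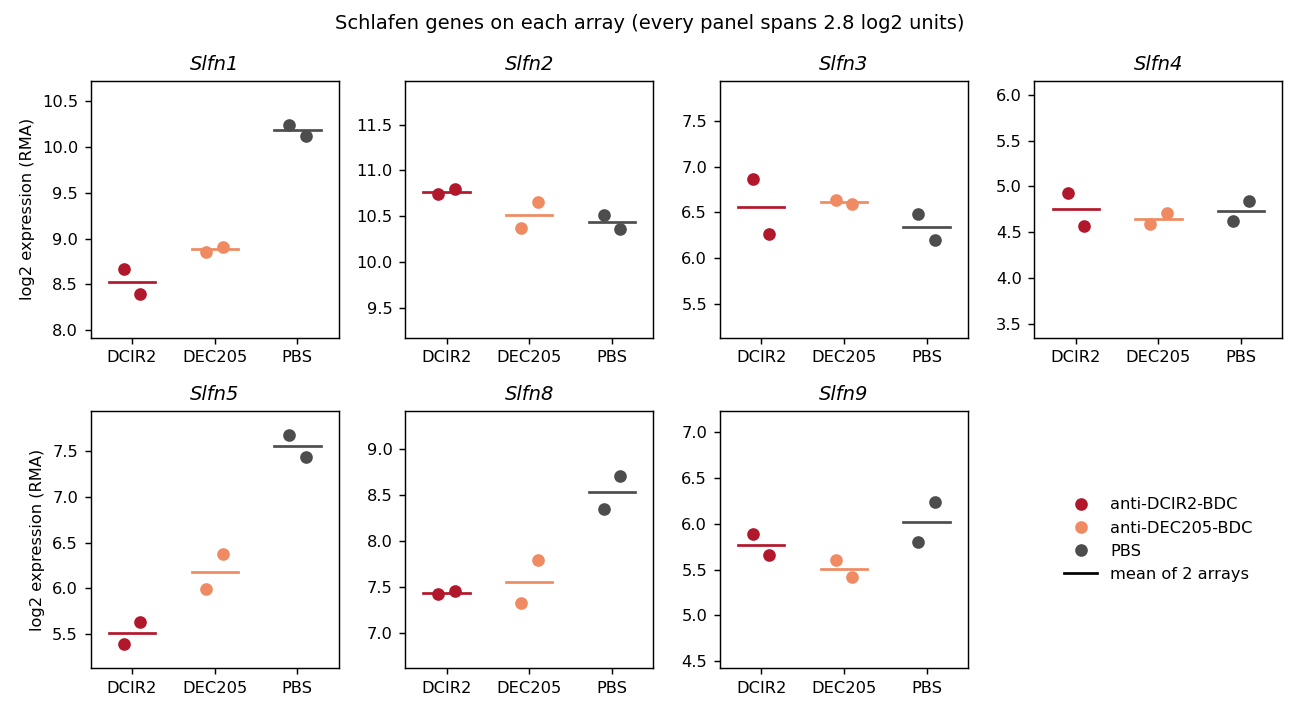
Log2 expression of the 7 Schlafen genes on each array (points) with the mean of the 2 arrays of a group (lines), for anti-DCIR2-BDC, anti-DEC205-BDC and PBS from left to right. In the panels of Slfn1, Slfn5 and Slfn8 both PBS arrays lie above all 4 antibody arrays, and in those of Slfn2, Slfn3, Slfn4 and Slfn9 the groups lie within about 1 log2 unit of each other.

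Of the short members, Slfn1 passed against PBS after both antibodies and Slfn2 after neither. Slfn1, the growth brake, read 8.67 and 8.39 on the anti-DCIR2-BDC arrays, 8.86 and 8.91 on the anti-DEC205-BDC arrays and 10.24 and 10.12 on the PBS arrays, all log2 levels. Both PBS arrays stood more than 1 log2 unit above every antibody array. Group means were 8.53 ± 0.19 after anti-DCIR2-BDC, 8.88 ± 0.034 after anti-DEC205-BDC and 10.18 ± 0.086 after PBS (SD, n = 2 each). The log2 change was -1.65 for anti-DCIR2-BDC against PBS (standard error 0.17, limma adjusted p = 0.000133) and -1.30 for anti-DEC205-BDC against PBS (standard error 0.17, limma adjusted p = 0.00166).

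Slfn2, whose loss breaks quiescence, read 10.75 and 10.79 after anti-DCIR2-BDC, 10.38 and 10.66 after anti-DEC205-BDC and 10.52 and 10.36 after PBS. The anti-DCIR2-BDC arrays were the highest, and those of the other groups overlapped. The log2 change of Slfn2 against PBS was 0.33 after anti-DCIR2-BDC (95% interval 0.023 to 0.64, limma adjusted p = 0.145) and 0.078 after anti-DEC205-BDC (95% interval -0.23 to 0.39, adjusted p = 0.83). Either interval lies wholly above that of Slfn1 in the same comparison, which runs from -2.03 to -1.28 and from -1.68 to -0.92; a test of the difference between the genes was not run.

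The intermediate members showed no call. Slfn3, studied mainly in the gut epithelium of rodents, read 6.86 and 6.26 after anti-DCIR2-BDC, 6.64 and 6.59 after anti-DEC205-BDC and 6.49 and 6.20 after PBS. The anti-DCIR2-BDC arrays of Slfn3 lay farther apart than those of any other member in that group. Its log2 change against PBS was 0.22 after anti-DCIR2-BDC (95% interval -0.28 to 0.71) and 0.27 after anti-DEC205-BDC (95% interval -0.23 to 0.77).

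Slfn4, known as an interferon-induced gene of mouse macrophages, read 4.93 and 4.57 after anti-DCIR2-BDC, 4.59 and 4.71 after anti-DEC205-BDC and 4.62 and 4.84 after PBS. All 3 groups overlapped. The probe set of Slfn4 was dim, with a mean over the 6 arrays at percentile 24.7 of all genes, so small changes of it are hard to see. Its log2 change against PBS was 0.018 after anti-DCIR2-BDC (95% interval -0.33 to 0.37) and -0.082 after anti-DEC205-BDC (95% interval -0.43 to 0.27).

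Among the long members, Slfn5, an interferon-induced nuclear protein, had the largest change. It read 5.39 and 5.63 on the anti-DCIR2-BDC arrays, 5.99 and 6.37 on the anti-DEC205-BDC arrays and 7.67 and 7.43 on the PBS arrays. The 3 groups did not overlap, with anti-DCIR2-BDC lowest and PBS highest. The means were 5.51 ± 0.17 after anti-DCIR2-BDC, 6.18 ± 0.27 after anti-DEC205-BDC and 7.55 ± 0.17 after PBS (SD, n = 2 each). Against PBS the log2 change was -2.04 after anti-DCIR2-BDC (standard error 0.20, limma adjusted p = 0.000112) and -1.37 after anti-DEC205-BDC (standard error 0.20, limma adjusted p = 0.00284). Ordered by log2 change from the largest fall, Slfn5 stood at place 52 of 19938 genes after anti-DCIR2-BDC and at place 76 after anti-DEC205-BDC.

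Slfn8, another long member, read 7.42 and 7.45 after anti-DCIR2-BDC, 7.32 and 7.79 after anti-DEC205-BDC and 8.35 and 8.71 after PBS. Every antibody array lay below both PBS arrays, and the antibody groups overlapped. The log2 change against PBS was -1.10 after anti-DCIR2-BDC (standard error 0.22, limma adjusted p = 0.00583) and -0.98 after anti-DEC205-BDC (standard error 0.22, limma adjusted p = 0.0217). The calls of Slfn8 were lost without some single arrays, while its change stayed below 0. Without anti-DCIR2-BDC array 1 the log2 change was -1.08, close to that with all arrays, with a limma adjusted p of 0.0502 (range 0.00286 to 0.0502 over the alternatives). For anti-DEC205-BDC it was -0.79 without PBS array 2 (adjusted p = 0.121) and -0.74 without anti-DEC205-BDC array 1 (adjusted p = 0.135, range 0.0109 to 0.135).

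Slfn9, the neighbour and close relative of Slfn8, read 5.89 and 5.66 after anti-DCIR2-BDC, 5.60 and 5.42 after anti-DEC205-BDC and 5.80 and 6.24 after PBS. The anti-DEC205-BDC arrays lay below both PBS arrays, and the anti-DCIR2-BDC arrays overlapped them. Its log2 change against PBS was -0.25 after anti-DCIR2-BDC (95% interval -0.67 to 0.18, limma adjusted p = 0.473) and -0.51 after anti-DEC205-BDC (95% interval -0.93 to -0.083, limma adjusted p = 0.151). Without PBS array 2, the higher of the PBS arrays for this gene, these changes were -0.026 and -0.29, and without PBS array 1 that of anti-DCIR2-BDC was -0.46. The intervals of Slfn8 and Slfn9 overlapped in both comparisons, and the difference between the genes was not tested. Probe sequences were not used here, and signal that close relatives share through cross-hybridisation cannot be told apart.

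**Figure D2:**
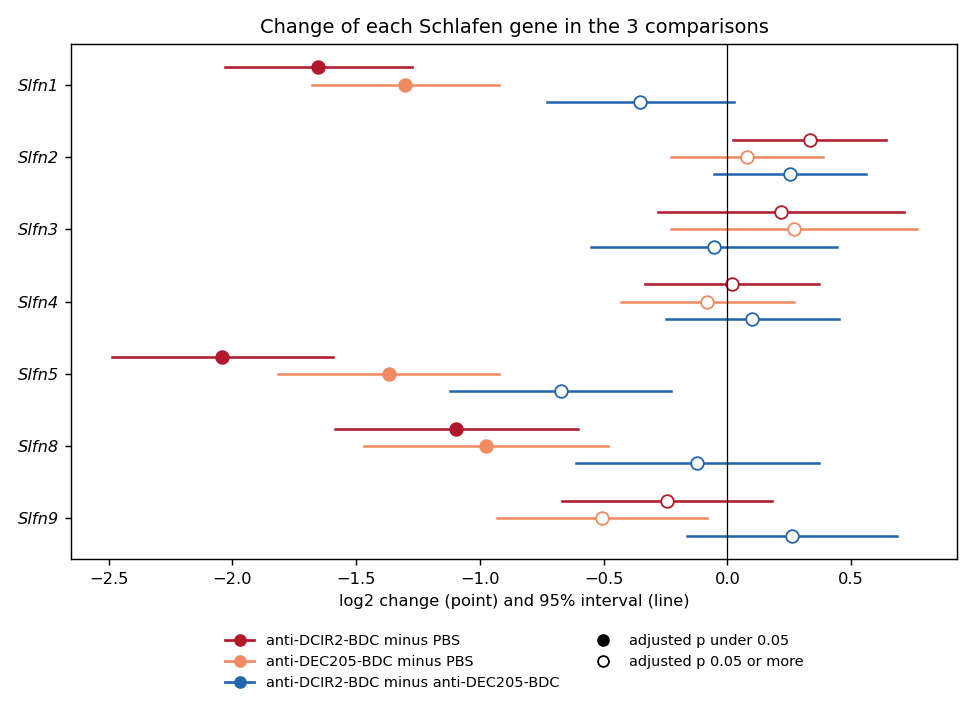
Log2 change (points) with its 95% interval (lines) for each Schlafen gene in the 3 comparisons; filled points passed at an adjusted p under 0.05. Slfn1, Slfn5 and Slfn8 have filled points left of 0 for both antibodies against PBS, and no point of the comparison between the antibodies is filled.

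The comparison of the antibodies asked whether the dendritic cell type addressed made a difference to these genes. In limma 0 of 7 members passed, against 0.0201% of all genes. At an unadjusted limma p under 0.05 stood 1 of 7 members, Slfn5, beside 2036 of all 19938 genes. Slfn5 was lower after anti-DCIR2-BDC than after anti-DEC205-BDC by a log2 change of -0.67 (95% interval -1.12 to -0.23, limma unadjusted p = 0.00716, adjusted p = 0.302), with both anti-DCIR2-BDC arrays below both anti-DEC205-BDC arrays. Slfn1 also had both anti-DCIR2-BDC arrays below the anti-DEC205-BDC arrays, with a log2 change of -0.35 (95% interval -0.73 to 0.025). Slfn2 and Slfn9 had theirs above, at 0.25 (95% interval -0.055 to 0.56) and 0.26 (95% interval -0.16 to 0.69). Of all genes 20.9% were separated downwards in this way and 19.3% upwards, against 2 of 7 members each. For Slfn8 the log2 difference was -0.12 (95% interval -0.61 to 0.37). Differences of either sign within that interval remain compatible with these arrays.

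The promoters of the members that moved and of their nearest relatives are shown to let the letters be compared, as 250 bases before the RefSeq start site in GRCm38.p6, read along the gene's strand. RefSeq gave a promoter for all 7 members. Capitals mark matches to 4 patterns searched on both strands: GAAANNGAA, the core bound by interferon regulatory factors, the STAT-binding pattern TTCNNNGAA, the AP-1 pattern TGANTCA and ACTTCCTGG, the longest word that the promoters of Slfn1, Slfn2, Slfn3 and Slfn4 share. The patterns were chosen with these promoters in view.
Slfn1, chr11:83116570-83116819, plus strand: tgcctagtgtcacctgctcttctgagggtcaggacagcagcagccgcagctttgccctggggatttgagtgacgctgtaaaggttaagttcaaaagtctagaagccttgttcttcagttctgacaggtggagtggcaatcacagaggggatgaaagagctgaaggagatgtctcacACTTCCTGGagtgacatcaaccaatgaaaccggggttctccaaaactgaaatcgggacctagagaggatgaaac
Slfn2, chr11:83064862-83065111, plus strand: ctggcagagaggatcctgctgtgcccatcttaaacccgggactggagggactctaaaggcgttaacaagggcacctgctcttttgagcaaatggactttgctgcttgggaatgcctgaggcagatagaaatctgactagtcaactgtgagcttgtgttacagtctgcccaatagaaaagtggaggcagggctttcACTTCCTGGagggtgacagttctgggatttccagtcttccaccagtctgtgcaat
Slfn5, chr11:82951852-82952101, plus strand: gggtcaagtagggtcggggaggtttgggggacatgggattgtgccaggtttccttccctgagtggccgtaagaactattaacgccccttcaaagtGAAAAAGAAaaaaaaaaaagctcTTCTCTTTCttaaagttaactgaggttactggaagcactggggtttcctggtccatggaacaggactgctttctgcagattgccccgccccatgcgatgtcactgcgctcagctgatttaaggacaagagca
Slfn8, chr11:83020811-83021060, minus strand: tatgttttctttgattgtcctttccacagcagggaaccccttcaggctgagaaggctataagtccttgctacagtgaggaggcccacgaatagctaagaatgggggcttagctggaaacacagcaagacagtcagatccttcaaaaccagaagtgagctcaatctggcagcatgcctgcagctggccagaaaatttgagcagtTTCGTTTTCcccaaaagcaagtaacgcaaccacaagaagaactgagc
Slfn9, chr11:82991831-82992080, minus strand: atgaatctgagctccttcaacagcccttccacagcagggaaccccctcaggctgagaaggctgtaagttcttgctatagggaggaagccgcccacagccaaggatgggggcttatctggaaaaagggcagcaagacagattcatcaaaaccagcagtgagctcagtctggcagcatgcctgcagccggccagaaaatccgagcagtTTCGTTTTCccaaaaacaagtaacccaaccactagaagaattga

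The interferon regulatory factor core was found in 3 of 7 members, Slfn5, Slfn8 and Slfn9, against 7.13% of 32851 promoter windows of the same length. That share is no fair yardstick, since the pattern was chosen with these promoters in view. In Slfn8 it began 47 bases before the start site and in Slfn9 44 bases before it, with the same letters, TTCGTTTTC, which read as the core on the other strand. Slfn5 held it at 2 places farther out, beginning 155 and 132 bases before the start. Slfn1 held no match to this pattern. A relation between the matches and the changes was not tested. Slfn8 and Slfn9 had 206 of 250 promoter bases identical (82.4%), against 118 to 142 bases in the other pairs of members. Their matches are therefore not independent of each other. A second Slfn8 start site listed by RefSeq gave a window that overlaps the one shown and holds the same match.

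The word ACTTCCTGG, which resembles sites of ETS factors, stood between 74 and 34 bases before the start of the 4 members that share it. It was in 0.7% of all windows. The word was picked as common to these 4 promoters, so its presence there was fixed and that share is no yardstick. The 4 are Slfn1, Slfn2, Slfn3 and Slfn4, and a relation of the word to their changes was not tested. The AP-1 pattern was in 1 of 7 members, Slfn4, against 6.75% of windows, and the STAT-binding pattern in 0 of 7, against 7.02%. These patterns too were chosen with the promoters in view, so their shares are no fair yardstick. No matches overlapped each other. A match is a description of letters and does not show that a factor binds there, and the mice were NOD, whose sequence may differ from this assembly.

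In the RefSeq order along chromosome 11, Slfn5 stands at one end of the cluster, followed by Slfn9, Slfn8, the pseudogene Slfn10-ps, Slfn2, Slfn1, Slfn4 and Slfn3. The 3 members that passed are therefore not next to one another. Slfn9 lies between Slfn5 and Slfn8, and Slfn10-ps and Slfn2 between Slfn8 and Slfn1. After anti-DEC205-BDC Slfn9 and Slfn10-ps also had both arrays below both PBS arrays, without passing, while the arrays of Slfn2 overlapped PBS. Slfn14, at the other end of the cluster, had no probe set naming it alone and was not measured. Slfn10-ps read 7.61 and 7.38 after anti-DCIR2-BDC, 7.48 and 7.30 after anti-DEC205-BDC and 7.77 and 7.89 after PBS. Both antibody groups of Slfn10-ps lay below PBS, with log2 changes of -0.33 after anti-DCIR2-BDC (95% interval -0.76 to 0.095) and -0.43 after anti-DEC205-BDC (95% interval -0.86 to -0.0066), and neither passed (limma adjusted p = 0.31 and 0.233).

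Slfn5os, a long noncoding RNA on the opposite strand that overlaps Slfn5, fell after both antibodies. It read 4.87 and 4.84 after anti-DCIR2-BDC, 4.81 and 5.08 after anti-DEC205-BDC and 5.99 and 5.40 after PBS, with a log2 change against PBS of -0.83 (limma adjusted p = 0.0136) and -0.74 (limma adjusted p = 0.0426). Whether its signal is separate from that of Slfn5 was not tested. Slfnl1, a related gene on another chromosome, had log2 changes of -0.060 after anti-DCIR2-BDC and 0.015 after anti-DEC205-BDC and did not pass.

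The nearest measured genes outside the cluster did not fall. Of 3 on each side, Nle1, a ribosome assembly factor, rose by a log2 change of 1.13 after anti-DCIR2-BDC (limma adjusted p = 0.00182) and 0.80 after anti-DEC205-BDC (limma adjusted p = 0.0237). The other 5, Unc45b, Unc45bos, Ap2b1, Rasl10b and Gas2l2, had log2 changes from -0.15 to 0.31 and did not pass against PBS.

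**Figure D3:**
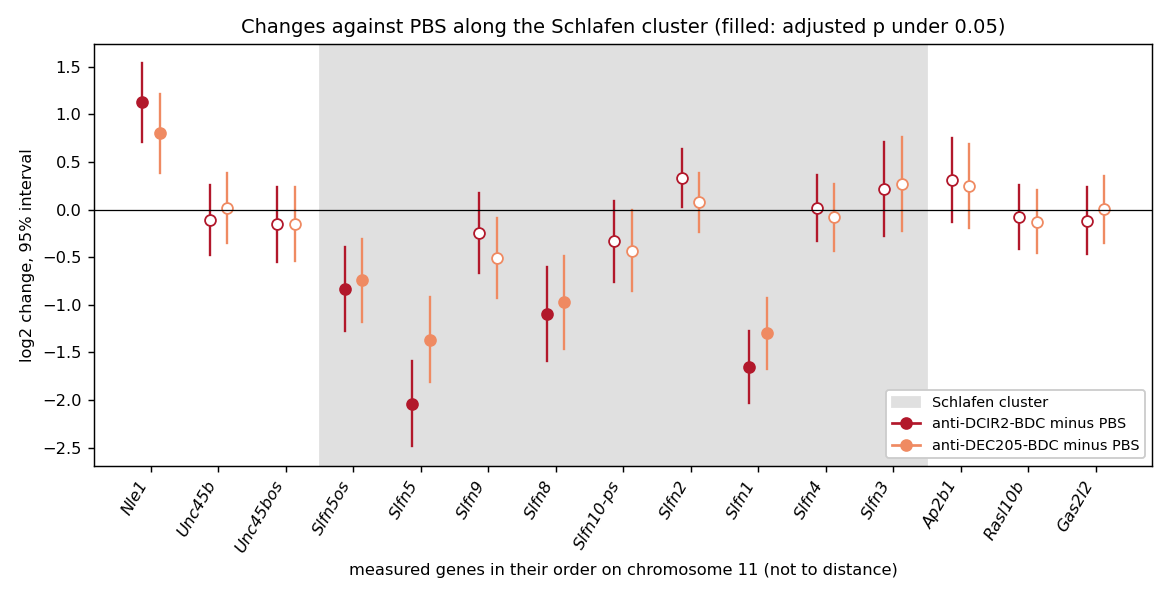
Log2 change against PBS with its 95% interval for the measured genes of the Schlafen cluster (grey) and 3 measured genes on each side, in their order on chromosome 11, with anti-DCIR2-BDC left of anti-DEC205-BDC for each gene and filled points at an adjusted p under 0.05. Filled points below 0 belong to Slfn5os, Slfn5, Slfn8 and Slfn1, with unfilled ones between them, and Nle1 has filled points above 0.

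Genes whose values over the 6 arrays were nearest to those of a member that fell were picked by the Euclidean distance between profiles, each centred on its own mean. Nearest to Slfn1 were Card6, a protein with a caspase recruitment domain (distance 0.177 log2 units), Habp4, an RNA-binding protein (0.23), and Pik3ip1, an inhibitor of PI3K in T cells (0.259). Nearest to Slfn5 were the deubiquitinase Mindy2 (distance 0.173), Dapl1, a gene of naive T cells (0.246), and Slc49a4, a transporter of the lysosome (0.288). Nearest to Slfn8 were Atp1b1, a subunit of the sodium pump (distance 0.168), the SNARE protein Vamp1 (0.175) and Frmd8 (0.185).

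All 9 of these genes were lower after both antibodies than after PBS, as the choice by likeness brings with it. Dapl1 read 7.85 and 8.33 after anti-DCIR2-BDC, 8.51 and 8.86 after anti-DEC205-BDC and 10.04 and 9.98 after PBS. Pik3ip1 read 6.59 and 6.39 after anti-DCIR2-BDC, 6.87 and 6.63 after anti-DEC205-BDC and 8.23 and 8.16 after PBS.

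**Figure D4:**
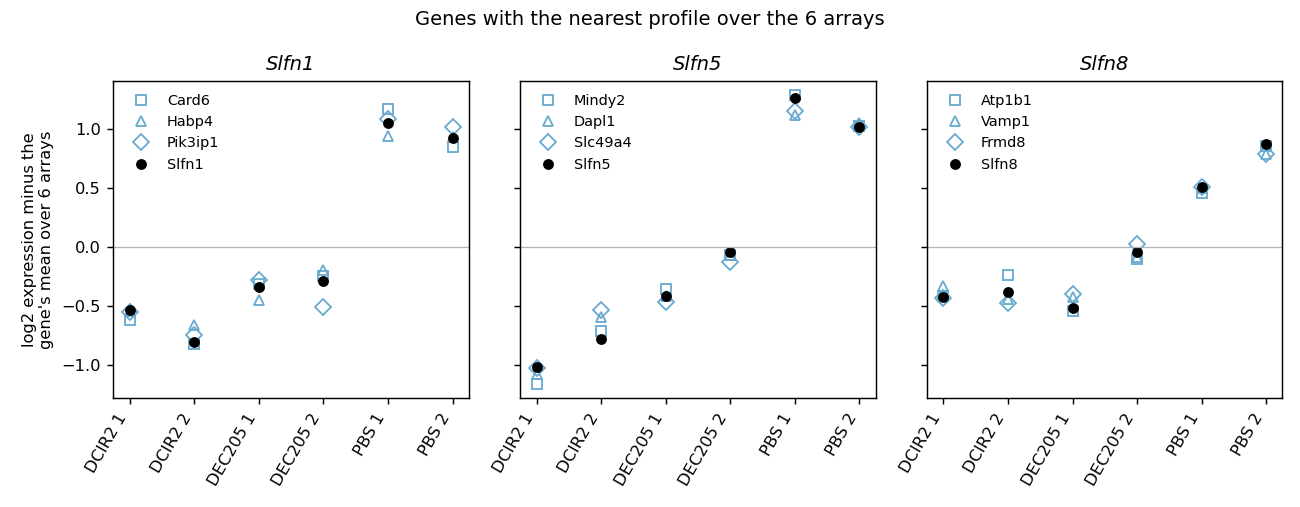
Log2 expression minus each gene's own mean over the 6 arrays, for Slfn1, Slfn5 and Slfn8 (black) and the 3 genes with the smallest distance from each (blue), with the arrays along the axis from anti-DCIR2-BDC to PBS. The Slfn5 group is lowest after anti-DCIR2-BDC, higher after anti-DEC205-BDC and highest after PBS, while in the Slfn8 group the arrays of the 2 antibodies lie at like heights.

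Type I interferon induces several Schlafen genes, so interferon genes were read beside them. Of 25 listed interferon-stimulated genes 23 were measured. After anti-DCIR2-BDC 14 of the 23 fell and 0 rose, where 7.82% of all genes were lower and 10.1% higher, with a median log2 change of -0.95, led by the nucleic acid sensors Zbp1 (-2.05) and Ddx58 (-1.99) and by Rtp4 (-1.79). After anti-DEC205-BDC 12 fell and 0 rose, where 3.53% of all genes were lower and 5.32% higher, with a median of -0.81, led by Rtp4 (-1.96), Zbp1 (-1.55) and Xaf1 (-1.46). Members that did not pass after either antibody included Mx1 (-0.31 after anti-DCIR2-BDC and -0.19 after anti-DEC205-BDC) and Rsad2 (-0.052 and -0.13), both antiviral effectors, and Bst2, which tethers viruses to the cell. Bst2 had both anti-DCIR2-BDC arrays above both PBS arrays (log2 change 0.58, limma adjusted p = 0.0751) and was at -0.095 after anti-DEC205-BDC.

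Of 11 genes of interferon receptors and their signalling 10 were measured. After anti-DCIR2-BDC 8 fell and 1 rose (all genes 7.82% and 10.1%), led by the interferon gamma receptor chains Ifngr1 (-1.86) and Ifngr2 (-1.54) and the transcription factor Irf1 (-1.69). After anti-DEC205-BDC 6 fell and 1 rose (all genes 3.53% and 5.32%), led by Ifngr1 (-1.39), Ifngr2 (-1.17) and Stat2 (-0.90), which carries the type I interferon signal to the nucleus. The kinase Jak2 was the one that rose, by a log2 change of 0.73 after anti-DCIR2-BDC and 0.65 after anti-DEC205-BDC. The receptor chains Ifnar1 and Ifnar2, which bind type I interferon, fell after anti-DCIR2-BDC (-0.98 and -1.25); after anti-DEC205-BDC their log2 changes were -0.40 and -0.77 and did not pass.

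Since Slfn2 is known for quiescence, quiescence and naive T cell genes were read too. Of 18 listed, 16 were measured. After anti-DCIR2-BDC 10 fell, against 7.82% of all genes, and 0 rose (median log2 change -0.77), led by the IL-7 receptor chain Il7r (-2.64), the egress receptor S1pr1 (-2.04) and the growth brake Btg2 (-2.03). After anti-DEC205-BDC 7 fell, against 3.53% of all genes, and 0 rose (median -0.60), led by Il7r (-1.88), S1pr1 (-1.70) and the quiescence factor Klf2 (-1.08). Slfn2 itself did not pass in either comparison.

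Slfn2 shields tRNAs, and of 5 genes of tRNA cleavage and protection 4 were measured. After either antibody 2 of the 4 rose, where 10.1% of all genes were higher after anti-DCIR2-BDC and 5.32% after anti-DEC205-BDC. They were Nsun2, which methylates tRNAs, by log2 changes of 2.07 after anti-DCIR2-BDC and 1.45 after anti-DEC205-BDC, and Elac2, which trims tRNA ends, by 1.48 and 0.90. Rnh1, the inhibitor of angiogenin-type ribonucleases, was at -0.0037 and 0.089 and did not pass. Of genes induced by the T cell receptor, set beside the same shares of all genes, 11 of 15 rose after anti-DCIR2-BDC, led by Il2 (5.31), Irf4 (3.52) and Cd200 (2.94), and 12 of 15 after anti-DEC205-BDC, led by Il2 (3.57), Tnfrsf9 (3.14) and Nr4a3 (2.78), and 0 fell. Between the antibodies 0 members of these 5 lists passed in limma, against 0.0201% of all genes. With so few genes passing, 0 calls does not set these lists apart.

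**Figure D5:**
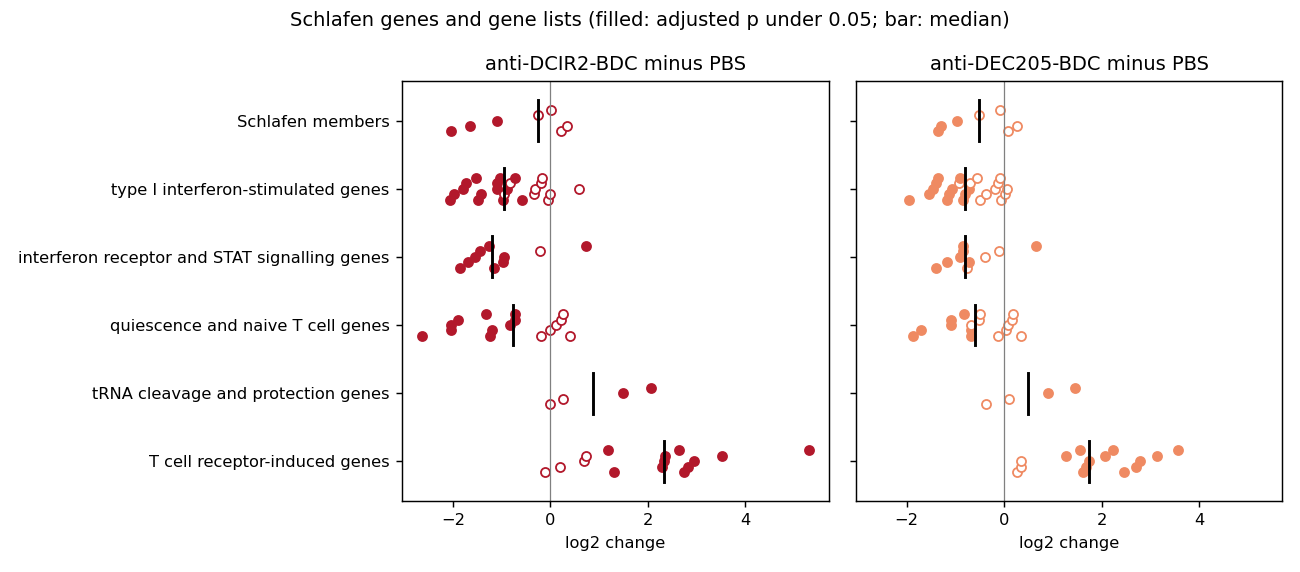
Log2 changes against PBS of the Schlafen genes and of the members of 5 gene lists (points, filled at an adjusted p under 0.05) with the median of each (bars), for anti-DCIR2-BDC on the left and anti-DEC205-BDC on the right. Filled points of the interferon-stimulated and quiescence lists lie below 0, those of the T cell receptor-induced list above 0, and the Schlafen genes spread from about -2 to just above 0.

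In bulk cells a lower level can come from fewer cells that express a gene or from less RNA in each, and these cannot be told apart. Markers of CD4 T cells had a median log2 change against PBS of -0.85 after anti-DCIR2-BDC and -0.44 after anti-DEC205-BDC. After anti-DCIR2-BDC 6 of 8 measured markers fell, against 7.82% of all genes, led by Trat1 (-1.72), Cd3g (-1.24) and Cd3d (-1.03), and after anti-DEC205-BDC 1 of 8, Trat1 (-1.04), against 3.53%. The mean log2 level of the list lay between 9.72 and 9.79 after anti-DCIR2-BDC, between 10.16 and 10.31 after anti-DEC205-BDC and between 10.62 and 10.63 after PBS. Their part in the Schlafen changes was not tested.

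Of all genes, 7.82% were lower and 10.1% higher after anti-DCIR2-BDC, and 3.53% lower and 5.32% higher after anti-DEC205-BDC. Among markers of other cells, 0 of 2 CD8 T cell, 0 of 6 B cell and 0 of 7 dendritic cell markers passed in limma after either antibody. The same held for 0 of 7 neutrophil and 0 of 2 erythroid markers. In lists this short, 0 calls does not set a list apart from all genes. Of 9 macrophage and monocyte markers 0 passed after anti-DCIR2-BDC and Cd14 fell after anti-DEC205-BDC (-0.83). The mean log2 level of this list was 5.02 to 5.05 after anti-DCIR2-BDC, 5.07 to 5.13 after anti-DEC205-BDC and 5.21 to 5.22 after PBS. Of 6 natural killer cell markers Eomes rose (1.06 after anti-DCIR2-BDC and 1.64 after anti-DEC205-BDC) and Prf1 fell (-0.95 and -0.97), and Gzma fell after anti-DCIR2-BDC (-1.15). Across all probe sets (not independent points) arrays of a group correlated at 0.974 to 0.982, and anti-DEC205-BDC array 2 correlated better with the anti-DCIR2-BDC arrays (0.979 and 0.98) than with its own replicate (0.974). Without that array Slfn1, Slfn5 and Slfn8 still passed against PBS.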

How the data were processed

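The table deposited by the authors holds log2 expression for each probe set. Per the submitters' processing notes it was made with RMA in Partek, with version and settings not given in the sources used here. Per the labels' protocols, 5 ng of total RNA was amplified before labelling, which can add noise for dim probe sets. RMA equalises arrays and so hides any shift common to all genes. All 35556 probe sets on 6 arrays had values, from 2.15 to 13.9, with array medians from 5.43 to 5.56.

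Of the probe sets, 21789 named 1 gene, 1621 several and 12146 were unnamed here. Only the first kind was used, for each gene the one with the highest mean, giving 19938 genes, dim ones included. Entrez identifiers matched 21698 of the 21789 probe sets naming 1 gene to RefSeq genes of GRCm38.p6. The test was limma 3.58.1 in R 4.3.3, with the 6 arrays in a single fit of group means, a trend of variance on level, two-sided p-values and Benjamini-Hochberg adjustment across the 19938 genes. The fit was tested on simulated data with independent normal noise, which does not show how it behaves on so few real arrays. The number of arrays limits precision.

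The members and lists were chosen with earlier results of these data known. All members were named, with the 3 genes nearest in profile to each member that passed against PBS and the 3 largest changes among passing members of a list. Promoters came from RefSeq (GRCm38.p6) and were compared with Biopython 1.88. Genes named outside this rule (Mx1, Rsad2, Bst2, Ifnar1, Ifnar2, Jak2, Rnh1 and the markers) were chosen after their values were seen. Alternatives were other scalings, a filter, other uses of probe sets, other variance models, fewer arrays and a replicate block.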

Additional observations from a re-analysis of the deposited data

How the results depend on the processing

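Against PBS 3 members passed for each antibody, and between the antibodies 0, under every alternative that kept all 6 arrays or only the 4 compared. Leaving out each array in turn gave 2 to 3 members for each antibody against PBS and 0 between the antibodies. Slfn1 and Slfn5 passed against PBS under all 15 alternatives, with log2 changes from -1.81 to -1.52 and -2.16 to -1.92 after anti-DCIR2-BDC and from -1.38 to -1.23 and -1.56 to -1.18 after anti-DEC205-BDC. Slfn8 kept its direction, with -1.28 to -0.92 after anti-DCIR2-BDC and -1.21 to -0.74 after anti-DEC205-BDC, and lost its call without the single arrays named above. Without 1 array the sign of some changes that did not pass turned. Such values ranged for anti-DCIR2-BDC against PBS from -0.084 to 0.52 in Slfn3 and from -0.16 to 0.20 in Slfn4. For anti-DEC205-BDC against PBS they ranged from -0.062 to 0.22 in Slfn2 and from -0.19 to 0.031 in Slfn4. Between the antibodies they ranged from -0.35 to 0.25 in Slfn3, from -0.079 to 0.28 in Slfn4 and from -0.36 to 0.12 in Slfn8. Slfn9 kept its sign against PBS, from -0.46 to -0.026 after anti-DCIR2-BDC and from -0.73 to -0.29 after anti-DEC205-BDC. The cause was not tested. The filter removed Slfn4.

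Median centring moved the median change of all genes from -0.049 to 0.057 for anti-DCIR2-BDC, where 2394 genes were then higher and 1173 lower, against 2008 and 1560, and from -0.025 to 0.042 for anti-DEC205-BDC, where 1186 were higher and 498 lower, against 1060 and 703. Deviations of equally numbered arrays correlated at 0.036 to 0.11 between groups. A low correlation does not exclude that equal numbers share an animal, litter or day, which the labels do not state. With the replicate block 3 members passed for each antibody against PBS and 0 between the antibodies.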
